A study of Mus musculus with 6 samples.

Results

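The steady-state mRNA levels of 8 G protein-coupled receptors of Schwann cells (SCs) were followed in sciatic nerves at postnatal day 4 (P4). The receptors were *Adgrg6*, *Gpr37*, *Gpr37l1*, *Gpr17*, *Lpar1*, *S1pr3*, *Ednra* and *Ednrb*. They were chosen by symbol, 8 of the 59485 genes in the deposited table, and in part because *Gpr37* was already known to be among the largest falls in these data. Their values in the contrast of genotypes are therefore given as a description, without p-values. Each library came from 1 animal, with 3 control and 3 mutant animals. The mutants carried Ht-PA-Cre together with homozygous floxed *Adar1* alleles and R26R, a YFP tracer of recombined cells. The Cre is driven by the human tissue plasminogen activator promoter, active in neural crest (NC) cells, from which SCs derive. The controls are labelled wild-type, a name the methods use for animals with floxed *Adar1* and R26R but no Cre. The whole nerve was extracted, so that each value sums SCs with endothelial cells, fibroblasts, perineurial cells, mural cells and blood-derived cells.

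G protein-coupled receptors cross the membrane in a bundle of helices and pass a signal from outside the cell to heterotrimeric G proteins inside it. Gs raises cyclic AMP (cAMP) through adenylyl cyclases, Gi lowers it, and Gq acts through phospholipase C and calcium. In SCs, cAMP promotes the step from the promyelinating stage to myelination, and the adhesion receptor ADGRG6 (GPR126), which couples to Gs, is required for that step in peripheral nerve. Lysophosphatidic acid (LPA), sphingosine-1-phosphate (S1P) and endothelins act on SCs and their precursors through the other families described here. GPR37 and GPR37L1 are related orphan-class receptors of glia for which prosaposin has been proposed as a ligand. GPR17 is best known from oligodendrocyte precursors, where it holds back maturation.

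The 6 libraries held between 50938349 and 78250094 reads on genes (55330839, 68654387 and 50938349 in controls 1 to 3, and 78250094, 59098483 and 57047095 in mutants 1 to 3). Values are reads divided by a size factor of the library (normalised reads), and 1 read was worth between 0.727 and 1.27 of these units. The targeted gene went against the label: *Adar*, the gene of ADAR1, was at 1602, 2066 and 1133 in the libraries labelled control and at 11768, 9311 and 9773 in those labelled mutant (log2 fold change 2.72, SE 0.20, limma adjusted p = 4.1e-05). The table has 1 value per gene, so that reads from the floxed segment cannot be told apart from the rest. For this reason each library is named by its label, as control-labelled or mutant-labelled. Of 12 SC markers, 6 passed the threshold (2-fold or more, with an unadjusted p of 0.05 or less), all lower. The 6 not past it were *Cdh19* (log2 fold change 0.13), *Ncam1* (0.28), *L1cam* (−0.24), *Foxd3* (−0.38), *Sox10* (−0.71) and *Scn7a* (−0.76). The summed level of the list ran from 3598355 to 4410580 in the control-labelled and from 120475 to 551687 in the mutant-labelled libraries. *Mbp* alone gave 1369737 to 1707837 of the control-labelled sums, so that the sum is weighted toward myelin genes. All 8 skeletal muscle markers were measured and 7 rose, with sums of 6734 to 34818 against 44926 to 330646. Among all genes tested, 10.4% were past the threshold and lower and 13.9% past it and higher. Of the other lists, 3 of 8 fibroblast markers, 1 of 6 perineurial markers and 3 of 9 macrophage markers fell, while 2 macrophage markers and 2 of 9 mural markers rose. The part of these cell types in the receptor values was not tested beyond the sums given beside single receptors.

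Of the 8 receptors, 5 were past the threshold and lower in the mutant-labelled libraries (*Gpr37*, *Gpr37l1*, *Gpr17*, *Ednrb* and *Lpar1*). Of the 25802 genes tested, 10.4% were past it and lower, and 24.2% past it in either direction. For 6 receptors, *Adgrg6* added, each mutant-labelled value lay below each control-labelled value, a pattern that 23.3% of all genes tested showed. The rule that named the receptors used this contrast, so nothing is read from these counts. The median log2 fold change of the 8 receptors was −1.68 and that of all genes tested 0.03. In whole nerve, fewer cells of a type and less RNA per cell cannot be told apart.

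**Figure D1:**
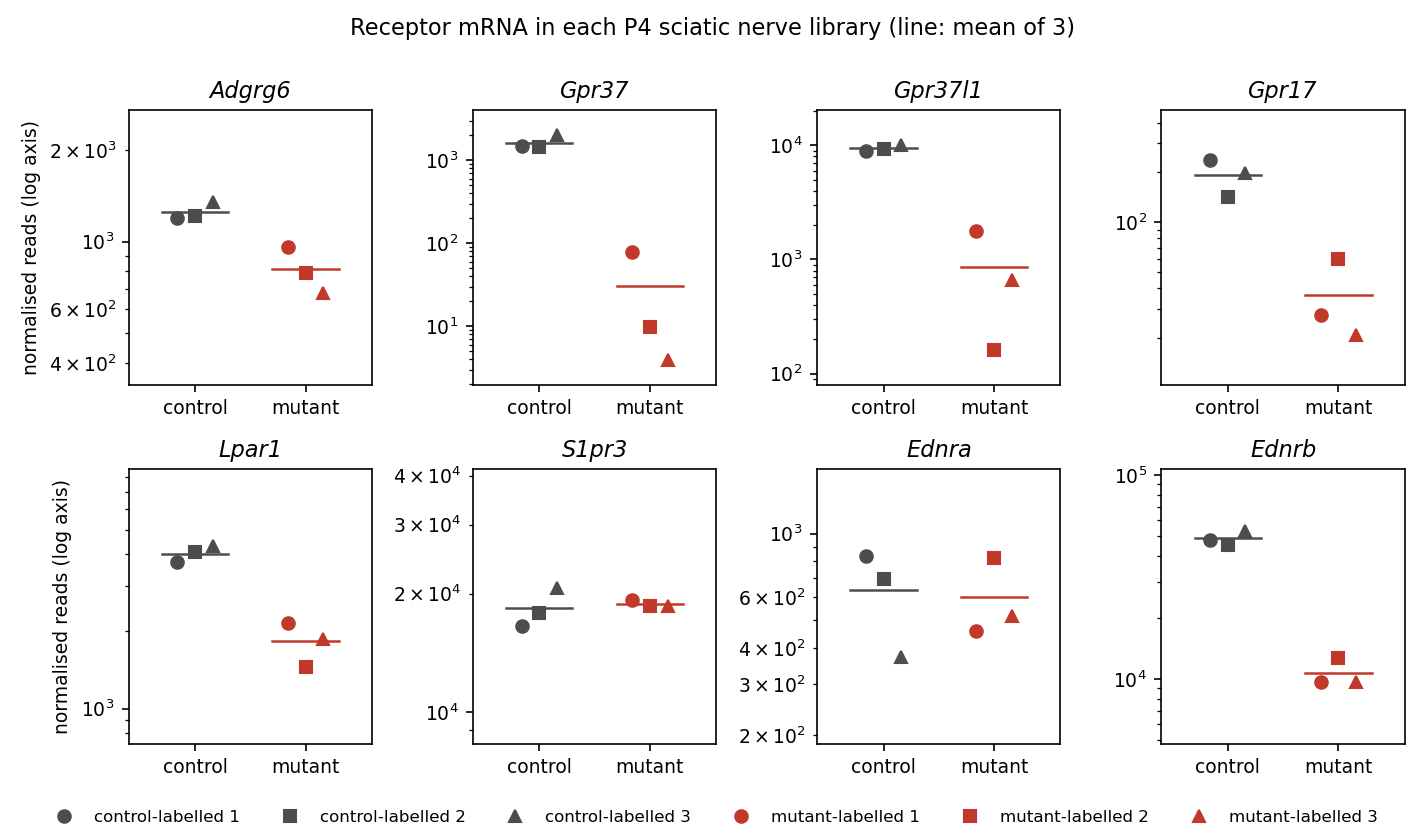
Normalised reads of each receptor in the 3 control-labelled (grey) and 3 mutant-labelled (red) libraries on log axes that differ between panels; symbols mark replicates 1 to 3 and lines the means. The groups are apart for 6 receptors, from *Gpr37* (1629 against 30.5) to *Adgrg6* (1254 against 810.2), and overlap for *S1pr3* and *Ednra*.

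*Gpr37* (GSMG0032786, minus strand, chr6:25665878-25690729 of mm10) was at 1467, 1426 and 1995 normalised reads in control-labelled libraries 1 to 3 and at 77.8, 9.65 and 3.96 in mutant-labelled libraries 1 to 3. The last 3 values rest on 107, 10 and 4 reads, and all 3 lie far below the lowest control-labelled value. The mean went from 1629 ± 317.2 to 30.5 ± 41.1 (SD, n = 3 each), a ratio of means 53.5-fold lower. The log2 fold change, a difference between means of log2 values, was −6.65 (SE 0.86). It weighs the lowest libraries more and is not the log of that ratio. Mutant-labelled library 1 retained 4.78% of the control-labelled mean, library 2 retained 0.592% and library 3 retained 0.243%. The log2 fold change was −7.79 without library 1 and −5.80 without library 3. No other gene of the table overlaps *Gpr37*.

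*Gpr37l1* (GSMG0002127, minus strand, chr1:135160236-135167684) was the more abundant of the pair. Its values were 8902, 9280 and 10149 in the control-labelled libraries and 1763, 160.2 and 656.7 in the mutant-labelled ones. The mean went from 9444 ± 639.3 to 860.0 ± 820.6, a ratio of means 11-fold lower. The log2 fold change, from means of log2 values, was −4.04 (SE 0.70). It was −3.13 without mutant-labelled library 2 and −4.86 without library 1. The control-labelled values lay within 1.14-fold of each other, whereas the mutant-labelled values spanned 11-fold. Both receptors of the pair were thus far below every control-labelled value in every mutant-labelled library. Library 2 had the lowest *Gpr37l1* and library 3 the lowest *Gpr37*. For *Gpr37* these libraries had only 10 and 4 reads, too few to order them with any certainty. The *Gpr37* value was 16.5, 15.4 and 19.7% of the *Gpr37l1* value in the control-labelled libraries and 4.41, 6.02 and 0.602% in the mutant-labelled ones. *Gpr37* was therefore lower relative to *Gpr37l1* in every mutant-labelled library.

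*Gpr17* (GSMG0018805, minus strand, chr18:31943000-31949636) was the scarcest receptor of the 8 in control-labelled nerves. It stood at 237.6, 141.7 and 197.7 normalised reads there and at 27.6, 59.8 and 20.8 in the mutant-labelled libraries. The mean was 192.4 ± 48.2 against 36.1 ± 20.8 (5.33-fold lower, log2 fold change −2.49, SE 0.45). The highest mutant-labelled value, in library 2, was still below the lowest control-labelled value. *Gpr17* lies within the span of *Lims2*, which is on the other strand and encodes an adaptor of focal adhesions, and the sources do not state whether strand was used in counting. *Lims2* was at 670.5 ± 30 and 557.8 ± 50.3 (log2 fold change −0.27, SE 0.14, limma adjusted p = 0.174). Of 8 oligodendrocyte-lineage markers, 5 had enough reads to be tested and 3 of these fell (*Mobp*, *Myrf* and *Bcas1*, named after their values were seen), while *Olig1*, *Olig2* and *Mog*, which define the lineage and had a mean under 10 in both groups, were not tested. Of all genes, 10.4% were past the threshold and lower. The summed level of the list was 17320 to 19949 against 6410 to 9698. Their part in the *Gpr17* values was not tested.

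*Lpar1*, the principal LPA receptor of SCs (GSMG0027852, minus strand, chr4:58435252-58553525), was at 3719, 4072 and 4292 in the control-labelled and at 2157, 1458 and 1875 in the mutant-labelled libraries. The mean was 4027 ± 289.1 against 1830 ± 351.6, 2.2-fold lower (log2 fold change −1.15, SE 0.15). The groups were apart, but the change lay close to the 2-fold limit. It was −0.99 after rescaling all libraries to 1 common total and −1.0 without mutant-labelled library 2, in both cases just short of 2-fold and so no longer past the threshold. A microRNA gene, *Mir3095*, and an unnamed gene share its strand and span.

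*S1pr3* (GSMG0009764, plus strand, chr13:51408618-51422797), a receptor for S1P that couples to Gi, Gq and G12/13, did not differ between the groups beyond the spread of the libraries. Its values were 16596, 17907 and 20743 in the control-labelled and 19301, 18625 and 18650 in the mutant-labelled libraries. The mutant-labelled values lay inside the control-labelled range and within 1.04-fold of each other. The means were 18415 ± 2120 and 18859 ± 382.9, with a log2 fold change of 0.04 (SE 0.10) that turned to −0.03 when libraries were rescaled to the same 75th percentile or control-labelled library 1 was left out. *Lpar1* was 22.4, 22.7 and 20.7% of *S1pr3* in the control-labelled libraries and 11.2, 7.83 and 10.1% in the mutant-labelled ones, without overlap.

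*Ednrb* (GSMG0012816, minus strand, chr14:103814615-103844476) is the endothelin B receptor, needed for NC-derived melanocytes and enteric neurons and expressed by immature SCs. It was the most abundant receptor of the 8 in control-labelled nerves, at 47959, 45575 and 53296, and was at 9635, 12690 and 9645 in the mutant-labelled ones. The mean went from 48943 ± 3954 to 10657 ± 1761, 4.59-fold lower (log2 fold change −2.21, SE 0.13). Its mutant-labelled values spanned 1.32-fold, the narrowest range among the 5 receptors past the threshold. An unnamed gene overlaps *Ednrb* on the same strand. Of 5 melanocyte markers tested, 3 fell and 1 rose, where 10.4% of all genes were past the threshold and lower and 13.9% higher. Their summed level was 1012 to 1153 against 194.9 to 520.1. Their part in the *Ednrb* values was not tested.

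*Ednra*, the endothelin A receptor of vascular smooth muscle and pericytes (GSMG0038629, minus strand, chr8:77663029-77724465), had overlapping values. They were 835.1, 697.3 and 372.6 in the control-labelled and 460.4, 824.9 and 515.3 in the mutant-labelled libraries. The means were 635.0 ± 237.5 and 600.2 ± 196.5, with a log2 fold change of −0.05 (SE 0.33). The sign turned with the scaling or with the library left out (0.11 at the same total, and from −0.39 to 0.19 over the 6 omissions). Within each group, *Ednra* ranked the 3 libraries as the summed mural markers did, although not over the 6 libraries together. These sums were 53245, 31819 and 26761 in control-labelled libraries 1 to 3 and 35948, 90751 and 61965 in mutant-labelled libraries 1 to 3. The summed endothelial and adipocyte markers had the same order within each group, and the part of these cells in the *Ednra* values was not tested. The ratio of *Ednrb* to *Ednra* was 57.4, 65.4 and 143.1 in the control-labelled libraries and 20.9, 15.4 and 18.7 in the mutant-labelled ones.

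*Adgrg6* (GSMG0003832, minus strand, chr10:14402585-14545037), the Gs-coupled receptor of laminin-211, collagen IV and the prion protein, was lower in every mutant-labelled library but by less than the limit of 2-fold. It was at 1196, 1215 and 1350 in the control-labelled and at 960.9, 791.2 and 678.5 in the mutant-labelled libraries. The mean was 1254 ± 83.7 against 810.2 ± 142.1, 1.55-fold lower (log2 fold change −0.64, SE 0.15). This was the smallest difference among the 6 receptors whose groups were apart. Of 3 unnamed genes that overlap *Adgrg6*, 2 lie on its strand.

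**Figure D2:**
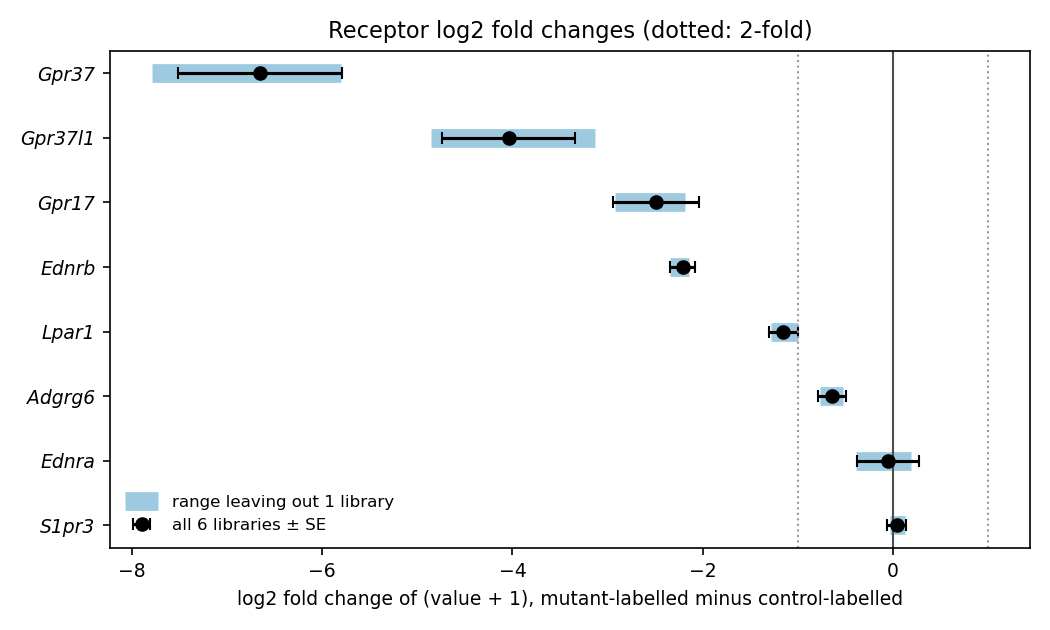
Log2 fold change of (value + 1) for each receptor, mutant-labelled minus control-labelled libraries (points, all 6 libraries; whiskers, SE), with the range obtained by leaving out each library in turn (blue bars); dotted lines mark 2-fold. *Gpr37* (−6.65) and *Gpr37l1* (−4.04) have the widest ranges, *Ednrb* (−2.21) a narrow one, the bar of *Lpar1* reaches −1.0, and those of *Ednra* and *S1pr3* cross 0.

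The order of the receptors by level changed between the groups. Levels were compared between genes per kb of merged exons, lengths that only approximate the constitutive regions in which reads were counted. In the control-labelled libraries *Ednrb* led with 11473 ± 926.8 normalised reads per kb, followed by *Gpr37l1* (4162 ± 281.8) and *S1pr3* (4126 ± 475.0), whose ranges overlapped. *Lpar1* came next with 1029 ± 73.9, then *Gpr37* with 268.5 ± 52.3. *Ednra* (175.2 ± 65.5) and *Adgrg6* (173.8 ± 11.6) could not be ranked against each other, and *Gpr17* was last with 37 ± 9.27. In the mutant-labelled libraries *S1pr3* led with 4226 ± 85.8 per kb, ahead of *Ednrb* (2498 ± 412.7), and their ranges did not overlap. *Lpar1* (467.7 ± 89.9) came next. *Gpr37l1* (379.0 ± 361.7) ranged from 70.6 to 777.1, so that it could not be ranked against *Lpar1*, *Ednra* (165.6 ± 54.2) or *Adgrg6* (112.3 ± 19.7), and the ranges of *Ednra* and *Adgrg6* overlapped too. *Gpr17* (6.94 ± 4.01) and *Gpr37* (5.02 ± 6.77) were last and overlapped. Of all normalised reads on the 8 receptors, not divided by length, *Ednrb* took 59.3, 56.7 and 57.7% in the control-labelled libraries and 28, 36.7 and 30.1% in the mutant-labelled ones, where *S1pr3* took 56.1, 53.8 and 58.2%.

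The mutant-labelled libraries were not alike, and the receptors did not rank them alike. *Mbp*, which encodes myelin basic protein, stood at 8.94, 0.859 and 2.8% of its control-labelled mean in mutant-labelled libraries 1, 2 and 3. *Sox10*, the transcription factor of the SC lineage, stood at 78, 49.7 and 58.1%. Both thus ranked library 1 over library 3 over library 2. *Gpr37l1* (18.7, 1.7 and 6.95%) and *Lpar1* (53.5, 36.2 and 46.6%) followed that order, and so did *S1pr3*, although its values all lay between 101.1 and 104.8%. *Gpr37* and *Adgrg6* ranked library 1 first and library 3 last, although for *Gpr37* libraries 2 and 3 had only 10 and 4 reads. *Gpr17* was highest in library 2 and so were *Ednrb* and *Ednra*. With 3 libraries in a group there is no test of these orders.

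**Figure D3:**
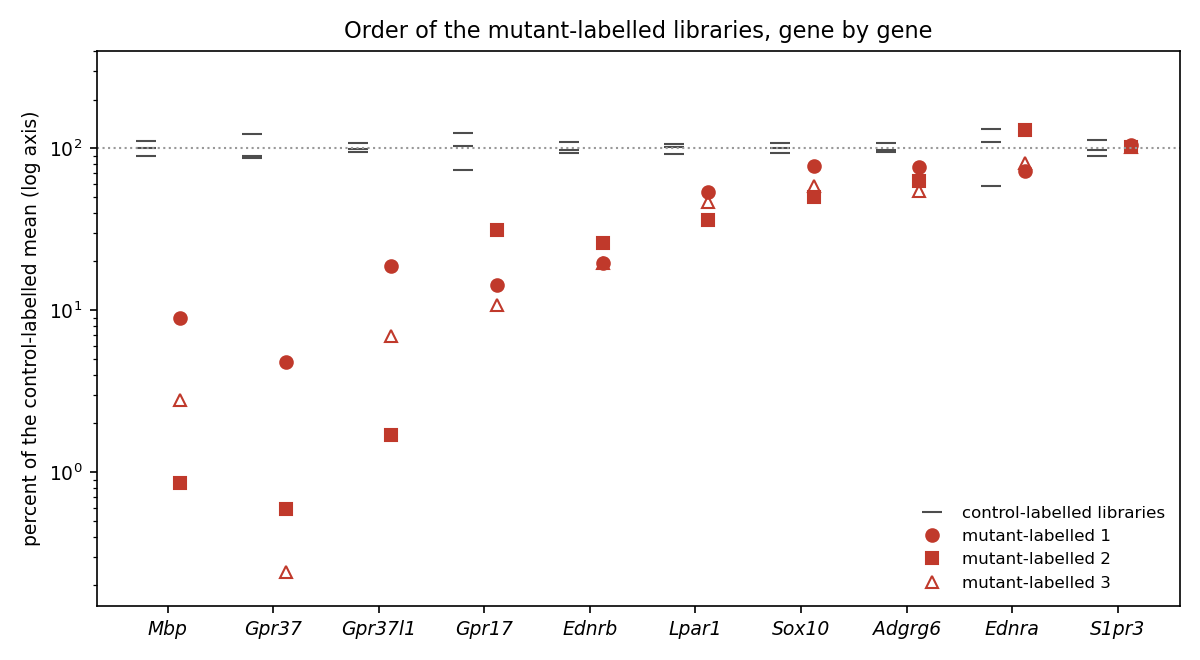
Each library as a percentage of the control-labelled mean of the gene, on a log axis, for *Mbp*, *Sox10* and the 8 receptors; grey dashes are control-labelled and red symbols mutant-labelled libraries. Mutant-labelled library 2 is lowest for *Mbp* (0.859%) and *Gpr37l1* (1.7%), and all 3 lie near 100% for *S1pr3*. Library 3 is lowest for *Gpr37* (0.243%), from 4 reads against 10 in library 2.

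Since *Sox10* was itself lower (11752 ± 849.7 against 7279 ± 1712, log2 fold change −0.71, SE 0.16, limma adjusted p = 0.00874), each receptor was also expressed per 1000 normalised reads of *Sox10* in the same library. On this scale 5 receptors remained lower without overlap, 1 was higher without overlap and 2 overlapped. Of all genes tested, 6.55% were lower without overlap on this scale and 47.8% higher. The rule used the same contrast, so nothing is read from the counts. *Gpr37* went from 116.3, 121.7 and 182.7 per 1000 *Sox10* reads to 8.49, 1.65 and 0.579, 39.2-fold lower in the mean. Mutant-labelled library 1 carried most of that mutant-labelled mean. *Gpr37l1* was 7.68-fold lower, *Gpr17* 3.01-fold, *Ednrb* 2.71-fold and *Lpar1* 1.36-fold. Single libraries weighed on these means too. *Gpr37l1* was at 192.3, 27.4 and 96.2 in mutant-labelled libraries 1 to 3, and *Gpr17* at 3.01, 10.2 and 3.04. Folds with a library left out are not given on this scale. The values of *Lpar1* were 294.7, 347.4 and 393.1 against 235.2, 249.7 and 274.7, and the groups came within a narrow margin of each other.

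*S1pr3* was at 1315, 1528 and 1900 per 1000 *Sox10* reads in the control-labelled and at 2105, 3190 and 2732 in the mutant-labelled libraries, so that it was higher in each of the latter on this scale, as were the 47.8% of all genes given above. *Adgrg6* was at 94.8, 103.7 and 123.6 against 104.8, 135.5 and 99.4, and its groups now overlapped. *Ednra* was at 66.2, 59.5 and 34.1 against 50.2, 141.3 and 75.5. *Sox10* stands here for the SC lineage as a whole, and whether its level per cell differed between the groups was not tested.

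**Figure D4:**
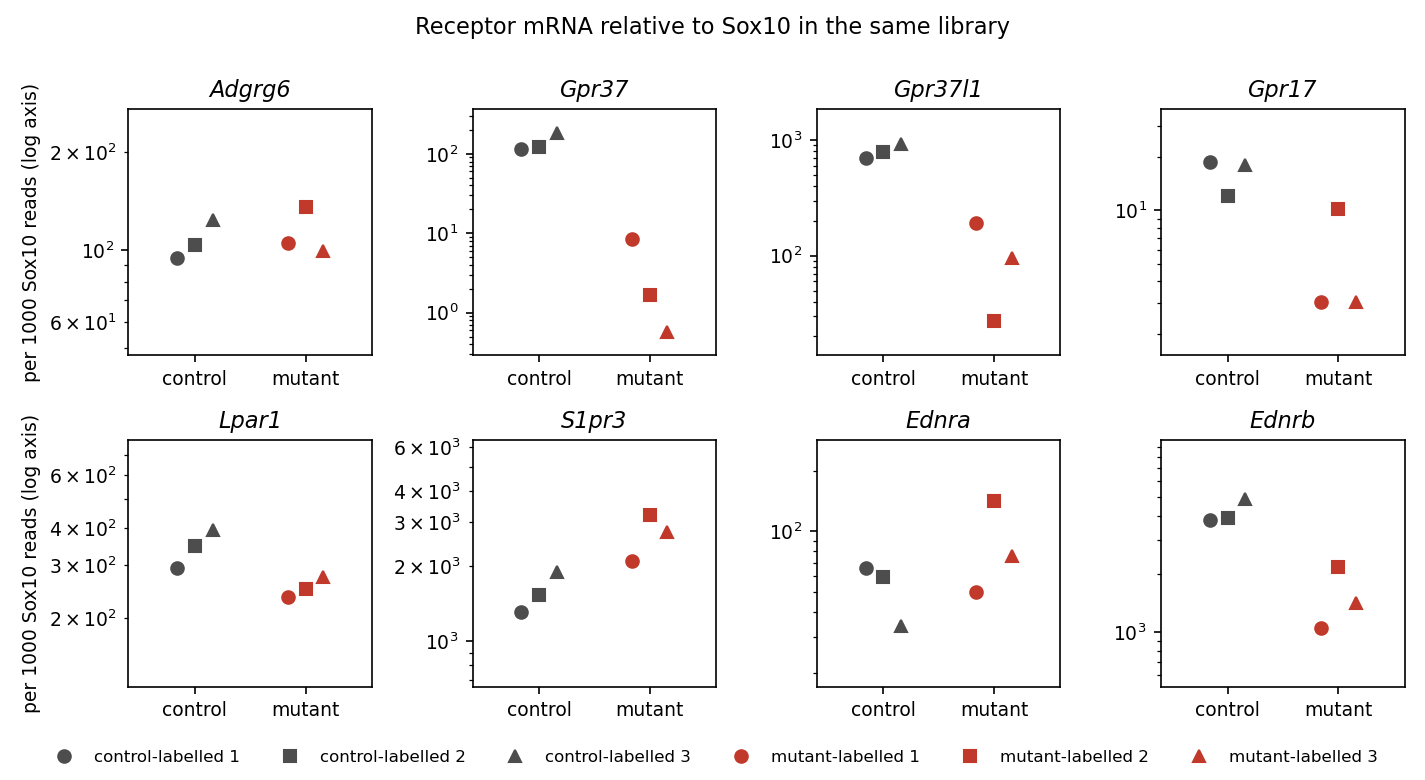
Receptor level per 1000 normalised reads of *Sox10* in the same library (log axes that differ between panels; grey, control-labelled; red, mutant-labelled; symbols, replicates 1 to 3). *Gpr37*, *Gpr37l1*, *Gpr17*, *Ednrb* and *Lpar1* stay below the control-labelled range, *S1pr3* lies above it, and *Adgrg6* and *Ednra* overlap with it.

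The 5 genes whose log2 values followed *Gpr37* most closely over the 6 libraries were *Adap1* (Pearson r = 0.9991), *Mob3b* (0.9981), *Lrfn4* (0.9976), *Fbxl19* (0.9976) and *Sox13* (0.9975). The 6 points share the split between the genotypes, and the coefficients are given as a description. Their values are set by that choice and are not tested. *Mob3b* was at 593.1 ± 39.8 and 59.6 ± 39.5, and *Fbxl19* at 1535 ± 15 and 988.1 ± 140.4.

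The sequence before the start of transcription was read for the receptors from windows at RefSeq starts (GRCm38.p6). The set of windows used here covered 7 of the 8, all but *Gpr17*, with 9 annotated starts. The windows shown are 250 bases long and end just before the start, on the strand of the gene. They are those of the paired orphan receptors, of *Ednrb* and *Lpar1* as lower receptors of the other families, and of *S1pr3*, whose level did not differ beyond the spread. Capitals mark matches to the GC box (GGGCGG), the CCAAT box (CCAAT) and the SOX core (ACAAAG or ACAATG), each searched on both strands.
Gpr37, chr6:25689981-25690230, minus strand: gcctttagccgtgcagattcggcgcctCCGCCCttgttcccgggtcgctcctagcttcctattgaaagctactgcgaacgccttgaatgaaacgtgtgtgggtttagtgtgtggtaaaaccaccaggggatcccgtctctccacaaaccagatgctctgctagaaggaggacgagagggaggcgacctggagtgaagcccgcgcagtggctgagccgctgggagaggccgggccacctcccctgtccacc
Gpr37l1, chr1:135167682-135167931, minus strand: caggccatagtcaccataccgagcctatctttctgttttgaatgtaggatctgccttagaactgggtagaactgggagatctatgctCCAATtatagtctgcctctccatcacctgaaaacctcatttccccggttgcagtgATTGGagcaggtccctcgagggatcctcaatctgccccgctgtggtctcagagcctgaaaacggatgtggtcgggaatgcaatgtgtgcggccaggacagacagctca
Ednrb, chr14:103843702-103843951, minus strand: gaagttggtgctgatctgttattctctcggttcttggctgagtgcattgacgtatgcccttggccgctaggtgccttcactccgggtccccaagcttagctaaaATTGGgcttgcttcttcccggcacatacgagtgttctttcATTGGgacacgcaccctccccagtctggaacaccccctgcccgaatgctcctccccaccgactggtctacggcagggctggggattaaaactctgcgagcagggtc
Lpar1, chr4:58553294-58553543, minus strand: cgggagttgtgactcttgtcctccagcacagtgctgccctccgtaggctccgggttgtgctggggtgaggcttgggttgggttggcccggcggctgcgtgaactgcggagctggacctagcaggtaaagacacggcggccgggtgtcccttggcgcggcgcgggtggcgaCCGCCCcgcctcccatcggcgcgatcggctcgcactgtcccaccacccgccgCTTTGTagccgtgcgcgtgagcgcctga
S1pr3, chr13:51408368-51408617, plus strand: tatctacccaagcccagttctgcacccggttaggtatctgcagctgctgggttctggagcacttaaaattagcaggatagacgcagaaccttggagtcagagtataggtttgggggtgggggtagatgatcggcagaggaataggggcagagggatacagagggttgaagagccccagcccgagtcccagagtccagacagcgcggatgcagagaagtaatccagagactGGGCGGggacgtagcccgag

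The RefSeq start of *Gpr37* lies 749 bases, and that of *Ednrb* 775 bases, inside the gene as the table draws it, whereas those of *Gpr37l1* and *S1pr3* lie within 3 bases of it. The receptors that were lower did not share a kind of window. *Gpr37* had a GC content of 60.8% with 16 CpG and 1 GC box, while *Gpr37l1* had 52% with 7 CpG and 2 CCAAT boxes in opposite orientations. *Ednrb* had 56.8% with 11 CpG and 2 CCAAT boxes, and *S1pr3* had 56.4% with 9 CpG and 1 GC box, 20 bases before the start. The *Lpar1* window shown had 70% with 28 CpG, 1 GC box and a SOX core, CTTTGT on the gene strand, 28 bases before the start. *Adgrg6* had 69.6% with 32 CpG and 2 GC boxes, and *Ednra* had 54.8% with 6 CpG and no match. Over all 32851 windows the median GC content was 52.4% and the median number of CpG was 6.

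Among all windows 32.7% held a GC box, 33.8% a CCAAT box, 12.4% a TATA box (TATAAA) and 25.2% a SOX core. Of the 7 receptors only *Lpar1* had a SOX core, in 2 of its 3 windows. The third of these starts, 54122 bases inside the gene, had it at 153 and at 48 bases before the start. No receptor window held a TATA box, the EGR site (GCGTGGGCG, in 0.536% of all windows) or the cAMP response element (TGACGTCA, in 1.55%). A match is a string of letters and not a bound site, and its absence concerns these 250 bases only.

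Among the ligands of these receptors and the enzymes that make or break them down, 3 of 19 tested genes rose and 5 fell, with a median log2 fold change of −0.59. The share past the threshold was 42.1%, against 24.2% of all genes tested (13.9% higher and 10.4% lower). The genes that rose were *Sphk1*, *Enpp2* and *Edn1*. *Enpp2* encodes autotaxin, which makes LPA outside the cell, and went from 662.1 ± 85.4 to 1937 ± 464.4 (log2 fold change 1.53, SE 0.20, limma adjusted p = 0.000621). *Sphk1* encodes a kinase that makes S1P and went from 81.3 ± 49.4 to 611.5 ± 168.9 (3.02, SE 0.40, adjusted p = 0.000719). *Plpp1* (log2 fold change −1.13) and *Plpp3* (−1.05), which encode phosphatases that break down LPA and S1P, were both among the 5 that fell. Other enzymes of the list were not past the threshold. These were *Sphk2*, which also makes S1P (−0.49), *Sgpl1*, which breaks down S1P (−0.06), and the phosphatase gene *Plpp2* (−0.57). All of these except *Sphk1* and *Enpp2* are named here after their values were seen.

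The endothelin ligands passed the threshold in opposite directions. *Edn1*, typical of endothelium, was at 402.0, 373.2 and 172.3 in the control-labelled libraries and at 432.8, 884.8 and 935.7 in the mutant-labelled ones (log2 fold change 1.26, SE 0.39, limma adjusted p = 0.0364). The groups hardly separated, and the gene was no longer past the threshold without control-labelled library 3 (log2 fold change 0.87, under 2-fold) or without mutant-labelled library 3 (1.06, with an unadjusted p over 0.05). *Edn3*, the ligand that acts with EDNRB on NC-derived melanocytes, was at 308.7, 223.0 and 195.2 against 81.5, 125.4 and 45.5 (−1.60, SE 0.40, adjusted p = 0.0144). The summed endothelial markers were 18614 to 27456 in the control-labelled and 27573 to 36741 in the mutant-labelled libraries, and their part in the *Edn1* values was not tested.

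Of the ligands of *Adgrg6*, 2 laminin chains (*Lama2* and *Lamb1*) passed the threshold, while the laminin gene *Lamc1* (−0.95), collagen IV genes and the prion protein gene did not. *Lama2*, the alpha chain of laminin-211, went from 52080 ± 6163 to 13115 ± 3025 (log2 fold change −2.01, SE 0.16, limma adjusted p = 5.71e-05), and *Lamb1*, a laminin beta chain, from 152969 ± 13545 to 46934 ± 9221 (−1.72, SE 0.14, adjusted p = 6.88e-05). *Col4a1*, a collagen IV chain, went from 44335 ± 4139 to 27679 ± 4693 (−0.69, SE 0.14, adjusted p = 0.00556), short of 2-fold. *Prnp*, the gene of the prion protein, gave −0.59 and was not past the threshold. *Lamc1* and *Prnp* are named after their values were seen. The summed fibroblast markers were 2494339 to 2897903 in the control-labelled and 1022486 to 1494765 in the mutant-labelled libraries, and their part in these values was not tested. The markers past the threshold were the collagen genes *Col1a1* (−1.10), *Col1a2* (−1.01) and *Col3a1* (−1.22). *Pdgfra* (0.16), *Dcn* (0.00), *Lum* (−0.43), *Pi16* (0.19) and *Dpt* (0.92) were not past it. *Psap*, which encodes prosaposin, was also lower by less than 2-fold (45293 ± 3287 against 28422 ± 4312, log2 fold change −0.68, SE 0.12, adjusted p = 0.00302).

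Of 19 tested receptors closest in family to the 8, 7 rose and 2 fell (47.4% past the threshold, against 24.2% of all genes), and the median log2 fold change was 0.62. *S1pr2* rose from 2830 ± 564.1 to 5706 ± 53.8 (log2 fold change 1.03, SE 0.14, limma adjusted p = 0.00087), and was no longer past 2-fold under 2 of the alternatives, 0.88 being the lowest value. *S1pr1*, the S1P receptor of endothelium and lymphocytes, was at 1789 ± 384.3 and 3468 ± 655.8 (0.96, SE 0.19, adjusted p = 0.00508), just under 2-fold. In the same libraries *S1pr3* gave 0.04, and the differences between these fold changes were not tested.

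*Lpar4* fell from 4808 ± 334.9 to 2045 ± 153.1 (log2 fold change −1.23, SE 0.10, limma adjusted p = 6.73e-05), close to the −1.15 of *Lpar1*, while *Lpar6* was at 1036 ± 88.1 and 1453 ± 75.1 (0.49, SE 0.12, adjusted p = 0.0133). *Adgrg1*, an adhesion receptor of the family of *Adgrg6*, fell from 6860 ± 1122 to 2549 ± 491.3 (−1.43, SE 0.17, adjusted p = 0.000352), and *Adgrg3*, of myeloid cells, rose from 34.8 ± 7.31 to 156.0 ± 91.4 (1.98, SE 0.49, adjusted p = 0.0149). *Cysltr1* and *Cysltr2*, leukotriene receptors related to *Gpr17*, rose by 1.58 and 3.37 on the log2 scale (adjusted p = 0.00596 and 0.0203), against the −2.49 of *Gpr17*. *Cysltr2* had at most 4.72 normalised reads in a control-labelled library, and its log2 fold change without control-labelled library 3 was 2.54, with 1.71 to 4.60 over the settings.

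**Figure D5:**
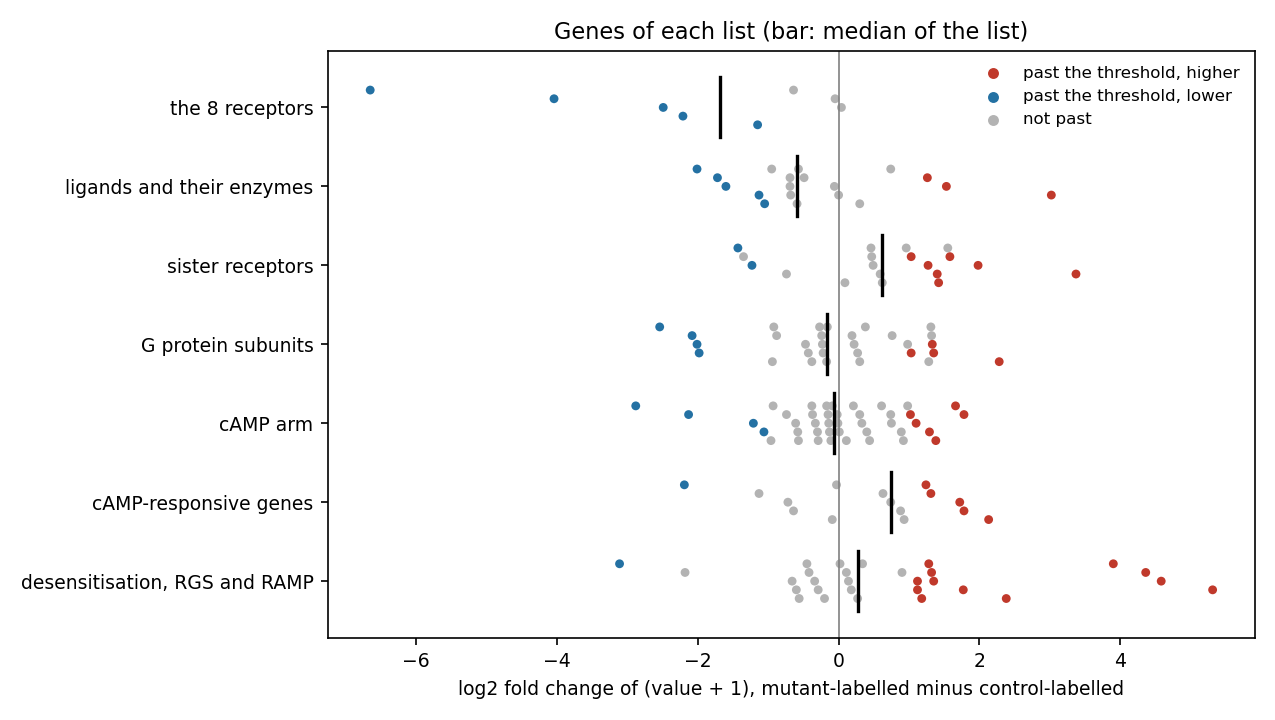
Log2 fold change of (value + 1), mutant-labelled minus control-labelled, for every tested gene of the 8 receptors and of 6 lists of genes around them; red and blue points passed the threshold, grey points did not, and black bars are list medians. The median is −1.68 for the receptors, −0.59 for ligands, 0.62 for sister receptors and between −0.16 and 0.74 for the signalling lists.

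Downstream of the receptors, 4 of 30 tested G protein subunits rose and 4 fell (median log2 fold change −0.16), and the 26.7% past the threshold was near the 24.2% of all genes tested. *Gnas*, which encodes the alpha subunit of Gs, was at 79956 ± 1798 and 68285 ± 8048 (log2 fold change −0.23, SE 0.11, limma adjusted p = 0.122). *Gnai1*, a Gi alpha subunit, fell from 4736 ± 486.6 to 1186 ± 223.1 (−2.01, SE 0.15, adjusted p = 4.24e-05). *Gnaz* (−2.08) and *Gng7* (−2.54) fell too, and *Gna14* (2.28), *Gng4* (1.35) and *Gngt2* (1.33) rose.

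In the cAMP arm (adenylyl cyclases, phosphodiesterases, protein kinase A and its inhibitors, the Epac proteins, and CREB factors with their coactivators), 6 of 42 tested genes rose and 4 fell (2 without mutant-labelled library 3), with a median of −0.06 and 23.8% past the threshold, again near the share of all genes. The phosphodiesterase gene *Pde4b* rose from 613.2 ± 139.1 to 2086 ± 317.3 (log2 fold change 1.78, limma adjusted p = 0.000216) and *Adcy7* from 737.4 ± 121.6 to 1903 ± 105.1 (1.38, adjusted p = 0.000232). *Pde1c* (−2.88) and *Adcy8* (−2.13) fell. Of 15 cAMP-responsive genes 5 rose and 1 fell (40% past the threshold, against 24.2% of all genes), and the median was 0.74. The gene that fell was *Pou3f1*, a transcription factor of promyelinating SCs that cAMP induces in culture (22452 ± 490.9 against 5135 ± 1884, −2.19, adjusted p = 0.000165). *Fosb* (2.13) and *Sik1* (1.72), which respond to many stimuli besides cAMP, rose.

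The list of arrestins, receptor kinases, regulators of G protein signalling (RGS) and receptor activity-modifying proteins (RAMP) gave 12 rises and 1 fall among 29 tested (2 falls without mutant-labelled library 2), with a median of 0.27 and 44.8% past the threshold, against 24.2% of all genes. *Rgs16* rose from 475.3, 455.4 and 512.0 to 12400, 9539 and 12790 (log2 fold change 4.58, SE 0.13, limma adjusted p = 8.72e-07). *Rgs1*, an RGS gene of lymphocytes, rose from 7.38 ± 2.85 to 390.4 ± 285.8 (5.31, adjusted p = 0.000399; 5.92 without mutant-labelled library 1, and 4.26 to 5.73 over the settings). *Rgs11* fell from 182.6 ± 34.5 to 23.5 ± 16.2 (−3.11, adjusted p = 0.0024). The summed T and NK cell markers were at 87.4 to 175.4 in the control-labelled and at 346.2 to 473.7 in the mutant-labelled libraries, with 4 of 6 markers past the threshold and higher (13.9% of all genes were), and their part in the *Rgs1* values was not tested.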

How the data were processed

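Sciatic nerve RNA of 3 control and 3 mutant mice at P4 was sequenced as oriented cDNA from the poly-A fraction. The authors mapped the reads to mm10 with STAR 2.4.0 and counted, for each gene of FAST DB, those on constitutive regions. They deposited a signal per gene and library, reads divided by a DESeq2 size factor. FastQC, Picard and SAMtools are also named in the submitters' processing notes. Whether strand was used in counting is not given in the sources used here. Dividing by the value of 1 read gave whole numbers (within 0.02) for 100% of the values, and these reads went into edgeR and DESeq2.

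Groups and replicate numbers come from the labels. Each library is 1 animal, so p-values measure the spread between these animals. The model was limma's (lmFit and eBayes, trend included) on log2(value + 1) over the 25802 genes with a mean of at least 10 in 1 or both genotypes, and p-values were adjusted over all of them (Benjamini-Hochberg). A gene passed the threshold at an unadjusted p at or under 0.05 and at least 2-fold, the limits in the methods. Folds are ratios of mean values, whereas log2 fold changes are differences between means of log2 values. They part where the libraries of a group differ widely. The added 1 makes the log2 fold changes of genes with few reads smaller. An exact permutation test of 3 libraries against 3 cannot go below p = 0.1, and read depth limits counting error only.

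The receptors and all gene lists were chosen with earlier results of these data known. Genes named by rule are the 8 receptors, *Adar*, *Mbp*, *Sox10*, 10 ligand, G protein and receptor genes listed by name whatever their values, the 3 largest rises and 3 largest falls past the threshold without overlap in each list, and the 5 genes most correlated with *Gpr37*. Outside this rule, some genes are named because they overlap a receptor or belong to a marker list. Others are named after their values were seen, as said beside them. Lists were described by counts and medians, with no set test. Exon lengths came from GENCODE vM21 and sequences from RefSeq. The steps were tested on simulated data. Results were recomputed under 12 other settings (pseudocount, filter, scaling, variance model, threshold, edgeR, DESeq2, a replicate block) and without each library in turn. Some single genes, 1 of the gene lists, editing and splicing are not reported here. Versions were limma 3.58.1, DESeq2 1.42.0 and edgeR 4.0.16 in R 4.3.3, and pandas 2.3.3, scipy 1.17.1, numpy 2.4.6 and matplotlib 3.10.9 in Python 3.11.15.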

Additional observations from a re-analysis of the deposited data

How the results depend on the processing

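All 8 receptors were recomputed under 12 other settings and without each of the 6 libraries. The directions of *Gpr37*, *Gpr37l1*, *Gpr17*, *Ednrb* and *Adgrg6* and their side of the threshold held throughout. *Lpar1* was no longer past the threshold with libraries rescaled to the same total (log2 fold change −0.99), and ran from −1.28 to −1.0 over the omissions. *S1pr3* turned to −0.03 at the same 75th percentile and ran from −0.03 to 0.13 over the omissions. *Ednra* turned to 0.11 at the same total and ran from −0.39 to 0.19. The causes were not tested. Rescaling to the same total moved the median of all genes from 0.03 to 0.19 and the share of higher genes among those past the threshold from 57.3 to 66.2%. Same-numbered libraries did not deviate together (correlations of −0.0619, −0.0555 and 0.00891), so that the numbers do not pair the animals. With the replicate number as a block, the receptors past the threshold were 5, and no call of a receptor changed. Among the lists described here, counts in 3 moved by more than 1.5-fold on rescaling or omission, all of them counts of genes that fell (ligands, 3 in place of 5 at the same total; and the omissions given above). *Gpr37* had 10 and 4 reads in mutant-labelled libraries 2 and 3, and its log2 fold change ran from −6.79 to −5.64 over the settings.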

Other observations

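Among the 98 genes of the table named as orphan (Gpr) or adhesion (Adgr) receptors, 78 were tested, with the receptors described above that carry such a name among them, and 18 rose and 14 fell (median log2 fold change 0.25; 41% past the threshold, against 24.2% of all genes). *Gpr155* fell from 1706, 1539 and 1780 normalised reads to 360.8, 166.0 and 305.6 (log2 fold change −2.66, SE 0.27, limma adjusted p = 0.000174). *Gpr50*, a relative of the melatonin receptors, had 11.1, 0 and 0 normalised reads in the control-labelled and 81.5, 63.7 and 79.1 in the mutant-labelled libraries (5.04, SE 1.02, adjusted p = 0.00586). Its log2 fold change ran from 2.72 to 7.27 over the settings and was 6.24 without control-labelled library 1 and 4.44 without control-labelled library 2 or 3. *Gpr18*, a receptor of lymphocytes, had 0, 0 and 5.07 against 56.7, 25.1 and 69.2 (4.70, SE 0.94, adjusted p = 0.00554; 5.56 without control-labelled library 3, and 2.31 to 6.96 over the settings). *Adgrg7* had 4.44, 0 and 10.1 against 66.9, 23.2 and 49.5 (3.47, SE 0.97, adjusted p = 0.0244; 2.48 without control-labelled library 2, 4.22 without control-labelled library 3, and 1.90 to 4.67 over the settings). None of these was near the 9444 normalised reads that *Gpr37l1* had in control-labelled nerves.

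*Rgs8* had 1 read in the 3 control-labelled libraries together and 129 reads in the mutant-labelled ones. The ratio of pooled reads was 103.6 after normalisation with a 95% counting interval of 18.3 to 4123, which covers counting error only. The ratio of mean values was 80.4. Mutant-labelled library 1 held most of the reads, with 70.6 normalised reads against 14.5 and 16.8. The log2 fold change of *Rgs8* was 4.36 (SE 0.94), 3.66 without mutant-labelled library 1, and 1.85 to 6.76 over the settings that tested it. *Pde11a* rose from 37.8 ± 15.7 to 119.0 ± 35.7 (log2 fold change 1.66, SE 0.43, adjusted p = 0.0178). *Pde4c*, whose annotated span contains many other genes, was at 209.3 ± 19.2 and 98.2 ± 51.2 (−1.21, SE 0.39, adjusted p = 0.0409), and its left-out range of −1.60 to −0.83 crossed the 2-fold limit.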
